A study of Mus musculus with 43 samples.

Results

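Centromere protein (CENP) genes encode the proteins that mark the centromere and build the kinetochore on it, and 10 of them were followed here among the 55401 gene identifiers of the expression tables. The 10 genes, Cenpa, Cenpb, Cenpc1, Cenpe, Cenpf, Cenph, Cenpm, Cenpn, Cenpt and Cenpu, were chosen by name and matched by GENCODE vM21 symbol to the identifiers of the tables, and all 10 were found in each table. The study asked what loss of Prmt1, the main enzyme that deposits asymmetric arginine dimethylation, does to gene expression and to histone arginine methylation in the early germline of C57BL/6J mice. The Prmt1-dKO (dKO) mice carried loxP-flanked Prmt1 alleles, of which a pair of conserved exons can be removed, and the Ddx4-CreERT2 knock-in allele, in which the Ddx4 promoter drives EGFP and a tamoxifen-dependent Cre in germ cells only. Tamoxifen was given by injection on 3 days. Whole testes at postnatal day 7 (P7) gave 3 WT and 3 dKO poly(A) RNA-seq libraries, and sorted GFP+ spermatogonia at P7 gave 2 WT and 2 dKO libraries made by Smart-seq2, a protocol that amplifies RNA of few cells by PCR. The labels name the sorted controls WT. The methods of the study instead describe GFP-sorted controls as heterozygous, with the Cre allele and 1 floxed Prmt1 copy. CUT&Tag, which cuts and tags chromatin where an antibody is bound, gave 33 peak lists from tubule cells at P7 and P14 against H3K4me3, H3K27ac and 5 methylarginine marks, all from WT animals apart from 2 lists of H4R3me2s in dKO at P7. The labels of the P14 lists name spermatogonia in some fields and spermatocytes in others, so these lists are named by their labelled age only. The peak names inside the H4R3me2s lists labelled P14 carry another number than that age, so the age of these lists is uncertain. Whole-testis libraries also hold Sertoli, Leydig and other somatic cells, in which this Cre is not active, and their labels name spermatogonia as the cell type.

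The centromere of each chromosome is defined by nucleosomes that hold CENP-A in place of histone H3. A group of inner proteins, the constitutive centromere-associated network (CCAN), sits on these nucleosomes throughout the cell cycle and carries the outer kinetochore, which binds spindle microtubules in mitosis and meiosis. Many of the genes, Cenpa, Cenpe and Cenpf among them, are transcribed chiefly in late cell cycle phases, so their RNA is abundant in dividing cells such as the spermatogonia of the young testis.

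The RNA libraries held 12396345 to 16598249 estimated counts in whole testes and 15610392 to 18547103 in sorted spermatogonia. Prmt1, the targeted gene, was at 237, 219 and 247 CPM (counts scaled to the library's size) in WT testes and at 146, 199 and 158 in dKO testes. In sorted spermatogonia Prmt1 was at 216 and 149 CPM in WT and at 112 and 86.5 in dKO. The sorted WT libraries also had fewer genes with counts (17106 and 15587) than the dKO libraries (21404 and 20194), and the biological coefficient of variation was 0.767 in the sorted libraries against 0.155 in whole testes. Whole dKO testes had lower summed levels of Sertoli markers (1366 to 1553 TPM, a scale corrected for library size and transcript length, against 2501 to 2806 in WT), Leydig markers (164 to 185 against 624 to 724) and peritubular myoid markers (290 to 507 against 827 to 900). Their germ cell markers, from 1547 to 1639 with Uchl1 the most abundant, overlapped WT (1560 to 1826), although Ddx4 was lower (0.628-fold, adjusted p = 0.0184 in edgeR) and Sycp3 higher (1.47-fold, adjusted p = 0.00877). Endothelial markers overlapped too (58.8 to 85.6 against 69.6 to 78.8), while macrophage markers lay apart (127 to 156 against 103 to 118) through Lyz2 alone, the other 5 summing to 67.7 to 95.2 against 60.9 to 78.7. In bulk samples, fewer cells of a type and less RNA per cell cannot be told apart. In the sorted libraries germ cell markers summed to 3086 and 3189 TPM in WT and 2503 and 2488 in dKO. That order came from Tex101 alone (1576 and 1591 in WT, 651 and 628 in dKO), since the other 9 germ cell markers summed to 1510 and 1598 in WT and 1853 and 1860 in dKO. Sertoli markers summed to 147 and 127 in WT and 128 and 192 in dKO. All 6 macrophage markers were at 0 in both sorted WT libraries, whereas they summed to 51.8 TPM in each dKO library with Adgre1 alone at 0. All 5 endothelial markers were at 0 in both sorted WT libraries too, and summed to 1.09 and 1.04 TPM in dKO. Leydig markers summed to 6.97 and 0.120 TPM in sorted WT and 4.74 and 8.13 in dKO. Peritubular myoid markers summed to 7.95 and 4.61 in sorted WT and 3.76 and 4.06 in dKO. The study describes its replicates as biological, while the labels do not say which animals each library came from, and p-values measure the spread between these libraries.

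The promoters of 4 members are shown because the results below turn on them: Cenpe, Cenpf and Cenpn had lower RNA in dKO testes, and Cenpt had most of its promoter peaks beside a neighbouring gene. Each run is the RefSeq window of GRCm38.p6 (mm10) from 250 bases before the annotated start to 50 bases after it, 300 bases in all, read along the gene's strand. Capitals mark matches on either strand to CCAAT, the core of the NF-Y box, or to TTTGAA, the core of the cell cycle genes homology region (CHR), both found in many cell cycle promoters. The Cenpe window is chr3:135212313-135212612 on the plus strand, Cenpf is chr1:189688037-189688336 on the minus strand, Cenpn is chr8:116921490-116921789 on the plus strand and Cenpt is chr8:105851959-105852258 on the minus strand. The Cenpt window lies inside the GENCODE extent of the gene, which runs to 105853278, so its RefSeq start differs from the outermost GENCODE start.
Cenpe: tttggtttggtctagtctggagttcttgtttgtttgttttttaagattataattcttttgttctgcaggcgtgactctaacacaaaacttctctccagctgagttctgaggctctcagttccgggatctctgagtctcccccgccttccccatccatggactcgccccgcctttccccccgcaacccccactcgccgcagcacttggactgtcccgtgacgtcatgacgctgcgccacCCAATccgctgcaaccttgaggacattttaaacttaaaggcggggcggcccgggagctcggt
Cenpf: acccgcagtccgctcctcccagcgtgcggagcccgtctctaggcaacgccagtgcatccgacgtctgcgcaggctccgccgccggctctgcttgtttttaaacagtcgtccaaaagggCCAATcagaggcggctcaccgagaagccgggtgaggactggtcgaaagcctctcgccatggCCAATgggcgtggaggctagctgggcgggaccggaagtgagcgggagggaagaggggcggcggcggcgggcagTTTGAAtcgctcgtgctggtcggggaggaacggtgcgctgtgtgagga
Cenpn: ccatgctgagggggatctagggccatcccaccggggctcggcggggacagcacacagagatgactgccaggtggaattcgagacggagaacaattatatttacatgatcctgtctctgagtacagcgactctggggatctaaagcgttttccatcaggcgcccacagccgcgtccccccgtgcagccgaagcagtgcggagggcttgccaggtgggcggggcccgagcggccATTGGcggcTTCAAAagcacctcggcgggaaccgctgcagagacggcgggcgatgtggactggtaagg
Cenpt: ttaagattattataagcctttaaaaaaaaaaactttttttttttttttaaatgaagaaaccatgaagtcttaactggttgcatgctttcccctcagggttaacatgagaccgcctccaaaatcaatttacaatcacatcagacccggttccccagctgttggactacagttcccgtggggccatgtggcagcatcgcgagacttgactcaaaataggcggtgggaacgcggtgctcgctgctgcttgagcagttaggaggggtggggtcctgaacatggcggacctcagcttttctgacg

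The Cenpf window held CCAAT starting at positions -132 and -71 and TTTGAA at position 3, the first transcribed base being position 1. In Cenpn both matches read on the opposite strand, with CCAAT at -18 and TTTGAA at -9, and Cenpe held a single CCAAT at -12. Among all 10 members, CCAAT was found in 8 windows (all but Cenpb and Cenpt), against 37.4% of the 32851 RefSeq windows of the same length. TTTGAA was found in 3 (Cenpa, Cenpf and Cenpn), against 17.9% of windows. An E2F site, searched on both strands as TTTCGCGC, TTTGGCGC, TTTCCCGC or TTTGCCGC, was found in Cenpb and Cenpm, against 2.26% of windows. No searched motif overlapped another in these windows, and the Cenpt window held none of these letters. The members' windows ranged from 46.3% GC in Cenpt to 75.7% in Cenpb.

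Between members, levels were compared in TPM in WT. In whole WT testes Cenpa, the histone H3 variant of the centromere, was the most abundant at 147, 146 and 149 TPM. Cenpb followed at 73.9, 66.9 and 71.2 TPM, then Cenpt at 48.7, 45.0 and 47.9 and Cenpm at 31.3, 31.8 and 33.5. The libraries of Cenpa, Cenpb and Cenpt each did not overlap those of the next gene in this order. From Cenpm down through Cenpf, Cenpn, Cenpe, Cenph and Cenpc1 to Cenpu, each gene overlapped its neighbour, and their WT means lay between 14.0 (Cenpu) and 32.2 TPM (Cenpm).

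In sorted WT spermatogonia the order of levels differed below Cenpa, which was at 352 and 396 TPM. Cenpf was the second at 179 and 194 TPM, Cenpm was at 97.0 and 108, and Cenpt was at 60.2 and 31.4. These did not overlap each other, whereas Cenpt, Cenpu and Cenph overlapped in succession, as did Cenpe, Cenpn and Cenpc1. Cenpb was last, at 3.09 and 0 TPM, although it was the second in whole testes. Its libraries held 225 and 0 counts in sorted WT and 136 and 175 in sorted dKO, against 2159 to 3521 in whole testes. The TPM of Cenpf also depended on the transcript length assigned by the counter, which was 3462 and 3072 bases in sorted WT and 8211 to 10833 in whole testes, so its place in the 2 orders is on different lengths.

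**Figure D1:**
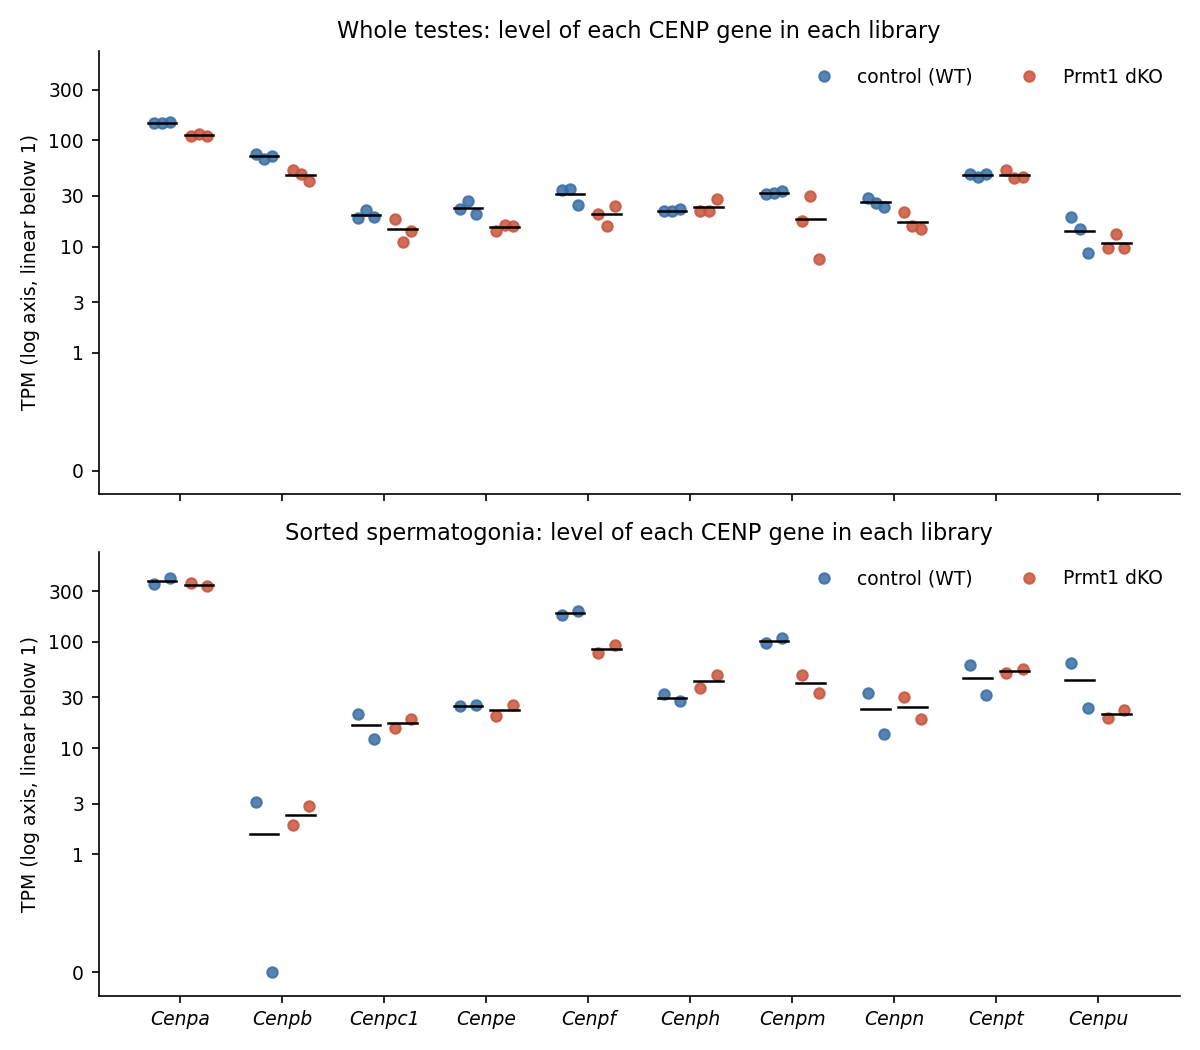
TPM of the 10 CENP genes in every library of whole testes (top) and sorted spermatogonia (bottom), on a log axis that is linear below 1; points are libraries, coloured by genotype, and bars are group means. Cenpa was the highest in each library (109 to 149 TPM in testes and 336 to 396 in sorted cells), and Cenpb stood at 3.09 TPM or less in all 4 sorted libraries.

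In whole testes, 3 of the 10 CENP genes were lower in dKO at a false discovery rate (FDR) below 0.05 in edgeR's quasi-likelihood test, namely the kinetochore genes Cenpe and Cenpf and the CCAN gene Cenpn, and none was higher. Over all 16554 genes tested, 8.51% were lower and 10.6% higher at that FDR. A gene was called only when it also differed by at least 2-fold, and 0 of the 10 members were called, against 5.32% of all genes called higher and 1.78% called lower. The unadjusted p was below 0.05 for 5 members, all lower, and DESeq2 also called 0 of them, against 7.71% of the genes it tested, and put 4 lower at an FDR below 0.05 (Cenpb, Cenpe, Cenpf and Cenpn), against 7.83%. The 3 lower members became 1 without WT replicate 1 or 2, where 2.80% and 3.36% of all genes were lower, and 5 without dKO replicate 2, where 15.2% were. In 5 members every dKO library lay under every WT library, against 19.9% of all genes tested, and 8 of 10 log2 fold changes were negative with a median of -0.36, against 0.02 over all genes. The general proliferation markers moved in the same direction, from 1010 to 1136 TPM summed in WT to 588 to 688 in dKO, with 9 of 10 lower at an FDR below 0.05, and their part in the change of the CENP genes was not tested.

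Cenpa (ENSMUSG00000029177.9, chr5:30666777-30674830, plus strand) encodes the centromeric nucleosome's own histone. Its libraries held 85.9, 80.0 and 85.4 CPM in WT testes and 70.9, 83.6 and 72.2 in dKO, so 1 dKO library lay within the WT range. The log2 fold change was -0.15 (SE 0.11) and did not pass (adjusted p = 0.368, edgeR). On the TPM scale, which has no correction for composition between libraries, the same libraries did not overlap, at 146 to 149 in WT and 109 to 116 in dKO. Cenpb (ENSMUSG00000068267.5, chr2:131175182-131180067, minus strand) encodes a protein that binds a short box in centromeric satellite DNA. It was at 219, 196 and 221 CPM in WT and at 163, 181 and 137 in dKO, every dKO library being the lower. Its log2 fold change of -0.40 (SE 0.12) just missed the threshold (adjusted p = 0.0515, edgeR), and it passed with RLE size factors (0.0474) and with DESeq2 (0.0141). All 4886 bases of Cenpb lie within the gene Spef1 on the same strand, so how reads were divided between them is uncertain.

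Among the CCAN members, Cenpn (ENSMUSG00000031756.5, chr8:116921730-116941507, plus strand), whose protein reads the CENP-A nucleosome directly, was lower in dKO testes. It was at 28.7, 24.9 and 24.4 CPM in WT and at 19.6, 19.7 and 16.0 in dKO, with no overlap. The log2 fold change was -0.50 (SE 0.14), or 0.708-fold (adjusted p = 0.0348, edgeR), and it missed the threshold when any of the 3 WT libraries or dKO replicate 3 was left out, the log2 fold change then lying between -0.56 and -0.41. Cenpc1 (ENSMUSG00000029253.12, chr5:86012024-86065583, minus strand), the mouse gene of CENP-C, the scaffold that ties the inner centromere to the outer kinetochore, was at 35.0, 40.6 and 37.4 CPM in WT and at 34.8, 26.3 and 29.4 in dKO. These libraries did not overlap, though WT replicate 1 and dKO replicate 1 nearly met, and the log2 fold change of -0.32 (SE 0.13) did not pass (adjusted p = 0.125, edgeR).

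Cenpm (ENSMUSG00000068101.11, chr15:82233779-82244748, minus strand), a subunit of the same CCAN assembly as CENP-H, was the most uneven member. Its WT testes were close together at 15.9, 13.9 and 15.7 CPM, whereas dKO replicates 1 and 3 were at 8.25 and 4.44 and dKO replicate 2 was at 14.6, within the WT range. The log2 fold change was -0.75 (SE 0.34) and did not pass (adjusted p = 0.158, edgeR). Without dKO replicate 2 it was -1.27 (adjusted p = 5.11e-04), and Cenpm was called, so the call turned on this 1 library.

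The other 3 CCAN members did not pass in whole testes. Cenph (ENSMUSG00000045273.8, chr13:100759674-100775899, minus strand) was at 13.5, 13.4 and 15.0 CPM in WT and 13.5, 17.0 and 19.3 in dKO, a log2 fold change of 0.25 (SE 0.16, adjusted p = 0.309 in edgeR). Cenpt (ENSMUSG00000036672.5, chr8:105844673-105853278, minus strand), a histone-fold protein that recruits the microtubule-binding Ndc80 complex, was at 46.2, 42.5 and 49.7 CPM in WT and 50.1, 58.8 and 48.6 in dKO. Its log2 fold change was 0.19 (SE 0.12, adjusted p = 0.311 in edgeR), and dKO replicate 3 lay within the WT range. Cenpu (ENSMUSG00000031629.14, chr8:46552028-46580007, plus strand), which helps to bring polo-like kinase to the kinetochore, had nearly the same level in all 6 libraries, at 10.2, 10.8 and 10.2 CPM in WT and 10.1, 10.3 and 9.96 in dKO, with a log2 fold change of -0.04 (SE 0.14, adjusted p = 0.862 in edgeR). Cenpu overlaps Primpol on the opposite strand over 4414 bases, and whether the counting used strand is not given in the sources used here.

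The kinetochore members that join in mitosis were lower in dKO testes. Cenpe (ENSMUSG00000045328.11, chr3:135212537-135273611, plus strand) encodes the kinesin that carries chromosomes to the spindle equator. It was at 91.0, 97.8 and 82.8 CPM in WT testes and at 64.1, 58.5 and 58.0 in dKO, so all dKO libraries were well under the lowest WT library. The log2 fold change was -0.59 (SE 0.11), or 0.665-fold (adjusted p = 0.00720, edgeR), and it passed with any 1 of the 6 libraries left out. Cenpf (ENSMUSG00000026605.14, chr1:189640606-189688086, minus strand) encodes a very large coiled-coil protein of the outer kinetochore that binds microtubules. It was at 221, 225 and 175 CPM in WT and at 143, 117 and 136 in dKO, also without overlap, a log2 fold change of -0.65 (SE 0.13) or 0.638-fold (adjusted p = 0.0112, edgeR). Cenpf missed the threshold without WT replicate 1 (-0.61) or WT replicate 2 (-0.60). Smaller overlaps with other annotated genes were 141 bases of Cenpf with the pseudogene Gm37239, 309 bases of Cenph with the pseudogene Gm16335 and 8 bases of Cenpt with Tsnaxip1.

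In sorted spermatogonia, 0 of the 10 members and 0% of the 16443 genes tested were called by edgeR, while at an unadjusted p below 0.05 2 members were lower (Cenpf and Cenpm), against 7.35% of all genes lower and 16.4% higher. The count over all genes depended on the tool, since DESeq2 called 1238 genes higher and 664 lower, 11.3% of the 16901 it tested. DESeq2 called 0 members as well, and put 1, Cenpf, lower at an FDR below 0.05, against 5.90% of all genes. In CPM, with 2 libraries a group, 3 members had both dKO libraries under both WT libraries (Cenpf, Cenpm and Cenpu), against 20.3% of all genes. Another 3 had both above (Cenph, Cenpn and Cenpt), against 36.3%. The median log2 fold change of the members was 0.27 and that of all genes 0.15.

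Cenpf was at 467 and 442 CPM in sorted WT and at 309 and 326 in dKO, a log2 fold change of -0.52 (SE 0.14) that did not pass in edgeR (adjusted p = 0.0949) and passed in DESeq2 (adjusted p = 7.72e-04). Cenpm was at 58.2 and 64.4 CPM in WT and at 37.8 and 24.7 in dKO, a log2 fold change of -0.97 (SE 0.34, adjusted p = 0.179 in edgeR). Cenpu was at 58.5 and 42.1 CPM in WT and 35.1 and 33.3 in dKO (-0.56, SE 0.32, adjusted p = 0.404 in edgeR). The groups of these 3 members lay apart, with WT the higher. Primpol, on the strand opposite to Cenpu, was at 0.318-fold in the same comparison (unadjusted p = 0.0132), and its part in the counts of Cenpu was not tested.

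Cenpn was at 18.9 and 17.1 CPM in sorted WT and 43.9 and 23.6 in dKO, a log2 fold change of 0.91 (SE 0.50, adjusted p = 0.382 in edgeR) that was 0.42 without dKO replicate 1. Cenph was at 26.6 and 23.1 CPM in WT and 37.7 and 44.6 in dKO (0.73, SE 0.35, adjusted p = 0.321 in edgeR), and Cenpt at 67.7 and 44.1 in WT and 76.7 and 74.3 in dKO (0.43, SE 0.29, adjusted p = 0.479 in edgeR). In these 3 members both dKO libraries were above WT in CPM. In TPM the groups of Cenph stayed apart (32.1 and 27.7 in WT, 37.1 and 49.0 in dKO). Those of Cenpn (32.7 and 13.7 against 30.2 and 18.8) and Cenpt (60.2 and 31.4 against 51.5 and 55.5) overlapped. Cenpe was at 154 and 153 CPM in WT and 142 and 166 in dKO, the dKO libraries lying on either side of WT, with a log2 fold change of 0.01 (SE 0.16, adjusted p = 0.991 in edgeR). Cenpa, at 219 and 267 CPM in WT and 310 and 250 in dKO (0.21, SE 0.19), and Cenpc1, at 41.1 and 21.2 in WT and 41.2 and 37.6 in dKO (0.34, SE 0.45), had adjusted p of 0.635 and 0.754 in edgeR. For Cenpb, at 11.6 and 0 CPM in WT and 8.75 and 11.6 in dKO, the 2 WT libraries differed more than the genotypes did, and the sign of its fold change turned when WT replicate 2 was left out.

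**Figure D2:**
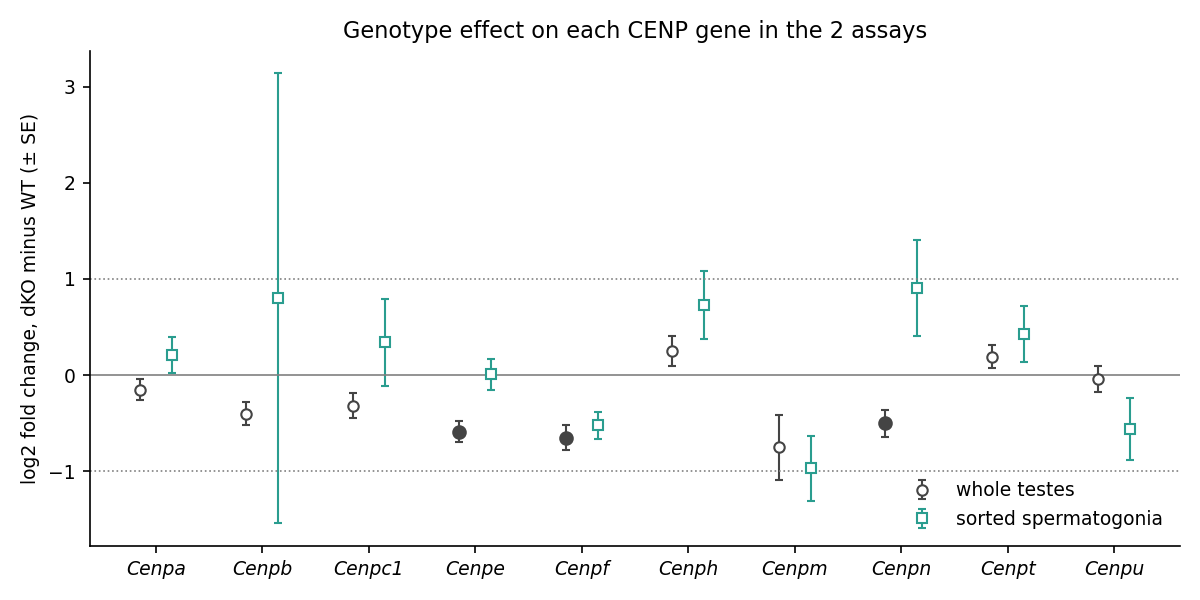
Log2 fold change of each CENP gene, dKO minus WT, with its SE, in whole testes (circles, 3 libraries a genotype) and sorted spermatogonia (squares, 2 libraries a genotype); filled symbols have an adjusted p below 0.05 in edgeR and dotted lines mark 2-fold. Cenpe (-0.59), Cenpf (-0.65) and Cenpn (-0.50) in whole testes are the filled symbols, and Cenpb in sorted cells has the widest error (SE 2.34).

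The genotype effect was compared between the assays directly, as an interaction in a joint fit that scaled all 10 libraries together, so its differences are not the exact subtraction of the 2 separate fits. The joint fit also gave each gene a single spread for both assays, although the biological coefficient of variation was 0.767 in sorted libraries against 0.155 in testes. Its SE for Cenpn (0.41) was below that of the sorted fit alone (0.50), so its adjusted p-values may be too small. The effect of 2 members was more positive in sorted cells than in whole testes at an FDR below 0.05, and that of 0 members more negative, against 14.7% and 4.24% of the 19608 genes tested. The difference was 0.68 for Cenpe (SE 0.18, adjusted p = 0.0314 in edgeR) and 1.49 for Cenpn (SE 0.41, adjusted p = 0.0350 in edgeR). Both were lost on leaving out any 1 of the 6 testis libraries, the difference then lying between 0.51 and 0.62 for Cenpe and between 1.27 and 1.42 for Cenpn, and also without sorted dKO replicate 2 for Cenpe (0.58) and without sorted dKO replicate 1 for Cenpn (0.99). For Cenpf, at -0.65 in whole testes and -0.52 in sorted cells, where it did not pass in edgeR, the difference was 0.22 (adjusted p = 0.553 in edgeR). The assays also differ in library protocol and in the cells they hold, which cannot be told apart here.

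Other genes of the centromere and kinetochore were taken as 6 lists of 42 genes in all, and in whole testes 12 of them were lower in dKO at an FDR below 0.05, 0 higher, and 1 called lower in edgeR, against 8.51%, 10.6% and 1.78% of all genes. The 12 became 3, 6 or 7 without WT replicate 1, 2 or 3, where 2.80%, 3.36% and 3.99% of all genes were lower, and 21 without dKO replicate 2, where 15.2% were. In all 38 of 42 had a negative log2 fold change, with a median of -0.29 against 0.02 over all genes. The called gene was Knl1, the outer kinetochore scaffold that recruits the checkpoint kinases, with a log2 fold change of -1.12 (SE 0.19, adjusted p = 0.00490). Without dKO replicate 2 it was -0.95 (adjusted p = 1.58e-04 in edgeR), below 2-fold and so not called. Knl1 was 1 of 4 of the 10 outer kinetochore genes that were lower at an FDR below 0.05, while 9 had a negative log2 fold change. The chromosomal passenger complex and cohesion guard had 5 of 6 lower at that FDR. Of these Aurkb, the kinase that corrects wrong attachments, had the smallest p (-0.59, adjusted p = 0.00751 in edgeR).

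The other 4 lists had at most 1 gene each past the FDR in whole testes. Of 10 other CCAN subunits 1 was lower, Cenpi (-0.72, adjusted p = 0.0275 in edgeR), with a list median of -0.08. Of the 4 genes that deposit CENP-A none passed, and the smallest p was that of the chaperone gene Hjurp (-0.36, adjusted p = 0.0505 in edgeR). Among 6 spindle checkpoint genes Mad2l1 was lower (-0.39, adjusted p = 0.0401 in edgeR), and among 6 motor and corona genes Kntc1 was lower (-0.92, adjusted p = 0.00339 in edgeR). The general proliferation list held 1 called gene, Mki67 (-1.05, adjusted p = 0.00229 in edgeR), and had a median of -0.73.

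In sorted spermatogonia 0 of the 42 genes were called by edgeR. At an unadjusted p below 0.05, 3 were lower and 2 higher, against 7.35% and 16.4% of all genes. DESeq2 called 2, Bub1 lower and Mad2l1 higher, against 11.3% of all genes it tested. In edgeR the log2 fold change of Mad2l1 was 1.27 in sorted cells (adjusted p = 0.0774) and -0.39 in whole testes. The smallest p in each list belonged to Bub1, the checkpoint kinase (-1.05, adjusted p = 0.0774 in edgeR), Cenps of the CCAN (-0.63, 0.172), Spc24 of the Ndc80 complex (-0.49, 0.179), Birc5 of the passenger complex (-0.39, 0.294), Mis18a of CENP-A deposition (0.48, 0.364) and the kinesin gene Kif18a (-0.41, 0.514). The median was -0.09 over the 42 genes, against 0.15 over all genes. Among 10 proliferation genes 3 were lower at an unadjusted p below 0.05, led by Top2a (-0.74, adjusted p = 0.0774 in edgeR).

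**Figure D3:**
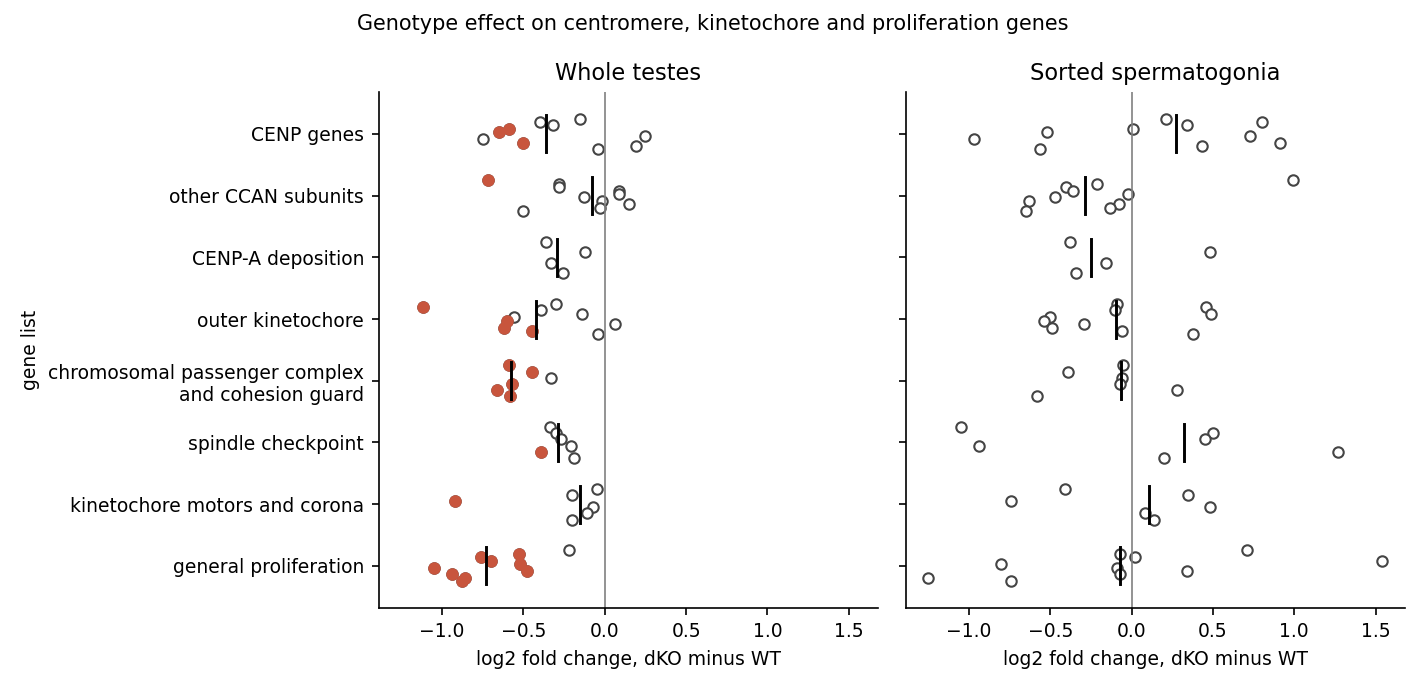
Log2 fold change, dKO minus WT, of every tested gene of the CENP group, the 6 other centromere and kinetochore lists and the proliferation list, in whole testes and sorted spermatogonia; points are genes, filled where the adjusted p is below 0.05 in edgeR, and bars are list medians. In whole testes the medians run from -0.08 (other CCAN subunits) to -0.73 (proliferation).

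The promoters of the members were then read in the 33 CUT&Tag peak lists. A gene was counted as marked when at least 2 replicate lists had a peak summit within 3000 bp of one of its transcript starts. H3K4me3, the mark of active promoters, was found at all 10 members at P7 and at P14, against 81.4% and 83.1% of the genes tested in whole testes. H3K27ac, a mark of active promoters and enhancers, was found at 5 members at P7 (Cenpb, Cenpc1, Cenpe, Cenpn and Cenpt), against 42.8% of genes, and at all 10 at P14, against 66.2%.

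The asymmetric dimethylarginine marks, the kind that PRMT1 deposits on histone H4 arginine 3, were each found at 2 members at P7, close to their share of all genes. H4R3me2a marked 2 members (Cenpn and Cenpt), against 19.8% of genes, and H3R2me2a and H3R8me2a each marked Cenpc1 and Cenpn, against 14.1% and 13.0%. The monomethyl mark H4R3me1 marked 1 member, Cenpn, against 14.1% of genes. Cenpn was the member with all 7 marks at P7, and Cenpc1 had 5 of 7. The share of all genes with as many marks was not counted.

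At P14 H4R3me2a was found at 8 members (all but Cenpa and Cenpb), against 62.0% of genes, and H3R2me2a at all 10, against 64.7%. H3R8me2a was found at 6 members, against 43.6%, and H4R3me1 at 6, against 39.4%. Cenpc1, Cenpf, Cenpn, Cenpt and Cenpu carried both, Cenpb the former and Cenpm the latter. The P14 lists of H4R3me2a were also longer (39597 to 44836 peaks, against 16995 to 18722 at P7), and when all lists of a mark were cut to the same number of peaks H4R3me2a marked 5 members at P14, against 40.7% of genes under the same limit. The H3R2me2a lists (47975 to 55908 peaks, against 18821 to 20891) and the H3K27ac lists (37984 to 45817, against 21974 to 23780) were longer at P14 as well, and at equal length each marked 8 members, against 39.2% and 57.0% of genes. For H3R8me2a, with 29376 to 33932 peaks against 15361 to 15547, equal length left 3 members, against 28.1%, and for H4R3me1, with 29030 to 32003 against 22031 to 24193, it left 5, against 32.5%.

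**Figure D4:**
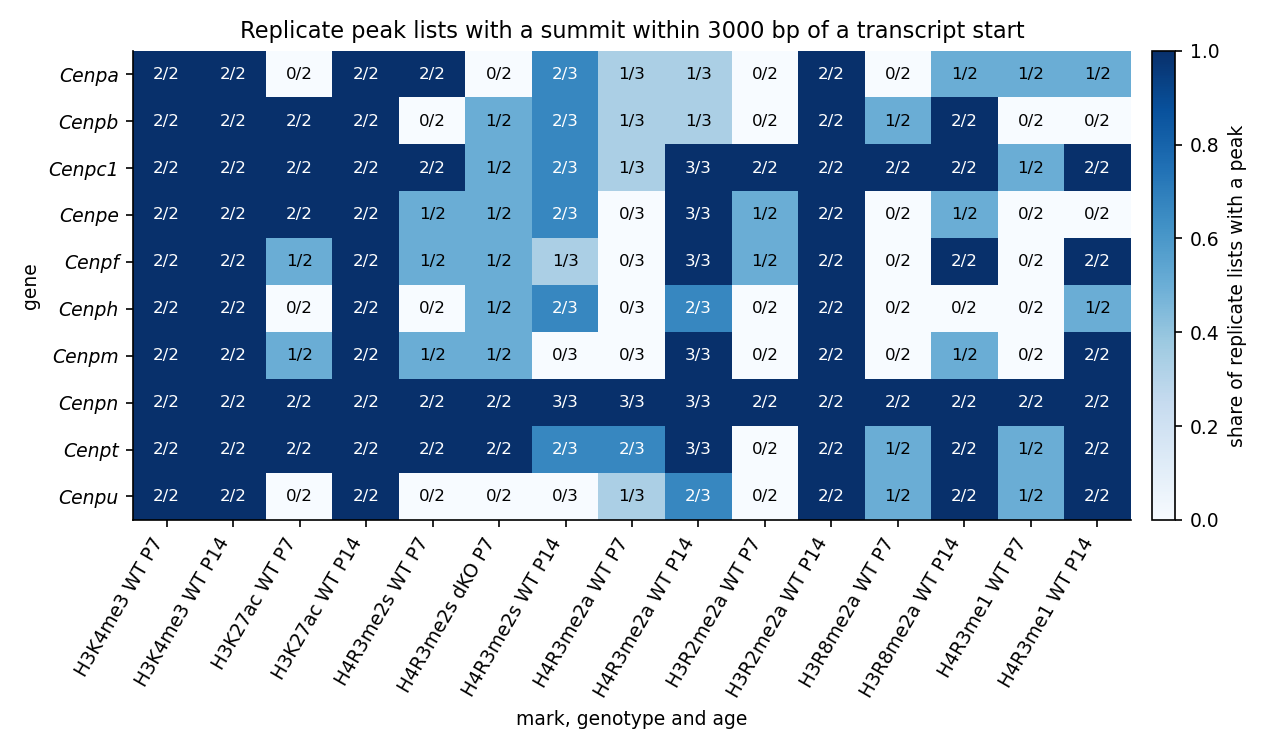
Replicate CUT&Tag lists with a summit within 3000 bp of a transcript start of each CENP gene; rows are genes, columns are marks by genotype and age, and each cell gives the lists with a peak of all lists of that column, shaded by their share. Over the 33 lists Cenpn had a peak in all 33 and Cenph in 14, the fewest.

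H4R3me2s, the symmetric dimethyl mark on the same histone arginine, was the mark read in both genotypes. At P7 it was found at 4 members in WT (Cenpa, Cenpc1, Cenpn and Cenpt), against 24.0% of genes, and at 2 in dKO (Cenpn and Cenpt), against 12.6%. In the lists labelled P14 it was found at 7 members, against 45.5% of genes, in 2 of 3 lists rather than 2 of 2, and with any 1 of these lists left out it was found at 3, against 27.1% to 32.6%. With 2 lists a genotype an exact permutation test cannot go below a two-sided p of 0.333, so no test was made. Single lists varied within a genotype: 5 and 6 members had a peak in the WT lists, against 43.8% and 41.9% of genes. In the dKO lists 7 and 3 members had a peak, against 33% and 28.0% of genes.

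The summits of H4R3me2s were placed as follows at P7. At Cenpa the strongest summits of the 2 WT lists lay at -37 and -1861 from the nearest transcript start. Neither dKO list had a peak there. The latter WT summit lay 3317 bp downstream of the gene's 5-prime end and was counted through a start within the gene. Counting gene 5-prime ends only, H4R3me2s at P7 marked 3 members in WT (18.7% of genes) and 2 in dKO (8.03%). At Cenpc1 the strongest summits lay at 1224 and 162 in WT, and dKO replicate 1 had a summit at 74. At Cenpn the WT summits lay at 105 and -138 and the dKO summits at -58 and -1. At a q of 0.01 or less none of the 10 members had a H4R3me2s promoter peak in both lists of either genotype at P7, although single lists held such peaks, as at Cenpn in dKO replicate 2.

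Peak position set Cenpt and Cenpn apart from the other members, because each has a neighbouring protein-coding gene that starts close by and runs the other way. The start of Thap11, which encodes a zinc finger transcription factor, lies 1854 bp upstream of the nearest Cenpt start, and that of Cmc2, a mitochondrial protein gene, 275 bp upstream of Cenpn. Of 27 lists with a peak counted to Cenpt, 16 had summits nearer to another gene's start only, and 11 had a summit within 1000 bp of Cenpt itself. The strongest H3K4me3 summits counted to Cenpt lay at -2008 to -1685, whereas those of Cenpc1 lay at 45 to 71 and those of Cenpe at 159 to 200. Both H3K4me3 lists at P7 and both at P14 also held a weaker summit within 1000 bp of a start of Cenpt itself. At Cenpn all 33 lists had a summit within 1000 bp of its start, and in 10 of them each summit was nearer to another gene's start. Peaks at a shared promoter cannot be told apart between the 2 genes.

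**Figure D5:**
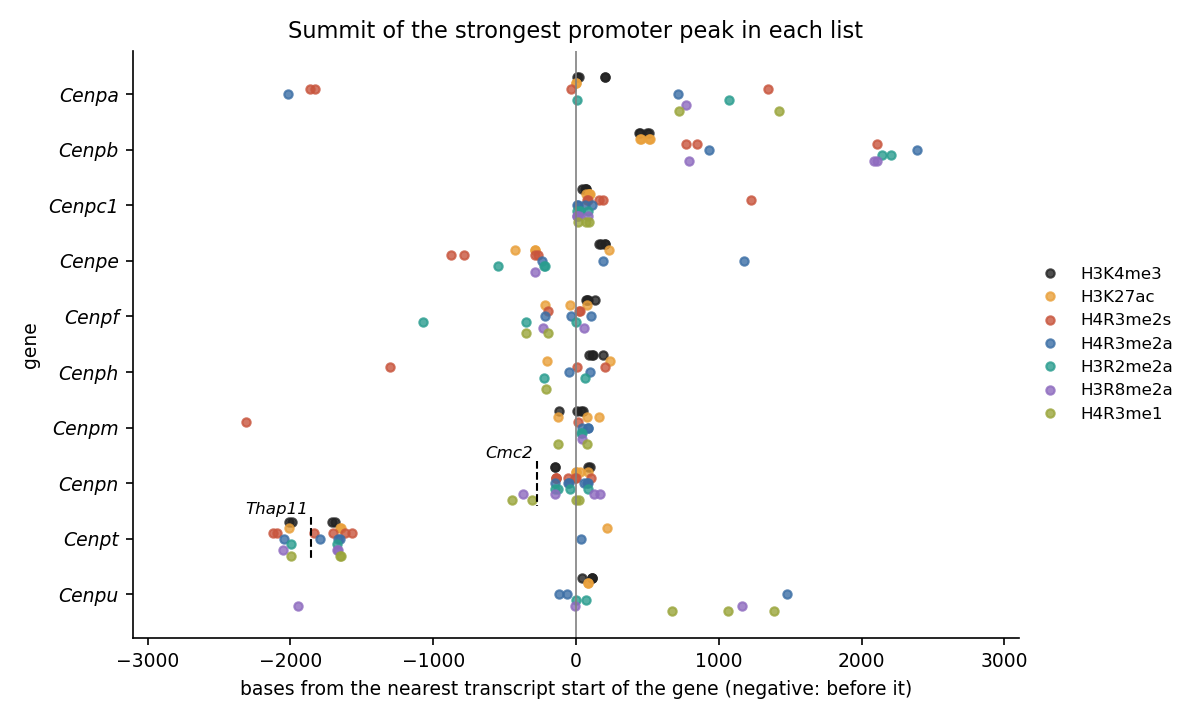
Distance in bases from the nearest transcript start of each CENP gene to the summit of its strongest promoter peak, 1 point per list, coloured by mark; dashed lines are the starts of neighbouring protein-coding genes. The points of Cenpt gather around the start of Thap11 at -1854, and those of Cenpc1 at its own start apart from 1 at 1224.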

How the data were processed

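The authors trimmed RNA reads with fastp 0.23.2, aligned them with STAR and counted genes with RSEM on mm10, and deposited per library the expected count, TPM, FPKM (not used here) and abundance-weighted transcript length of each gene. The authors called CUT&Tag peaks in each sample with MACS2 2.1.0 and deposited each peak's fold enrichment and the −log10 of its p and q values. H3K4me3 peaks were called at a q limit and those of the other marks at a p limit, and enrichments were not compared between lists. Here the deposited expected counts were rounded, genes under a count of 10 or a total of 15 were removed by filterByExpr, libraries were scaled by TMM, and dKO was compared with WT in each assay by edgeR 4.0.16 quasi-likelihood tests with Benjamini-Hochberg adjustment over all genes. The estimated counts do not separate transcripts with retained introns, and splicing was not analysed here. CPM printed are on TMM-scaled libraries. The same models were tested on simulated data. Alternatives were DESeq2 1.42.0, RLE size factors, no filter, a replicate block, each library left out, and for peaks a window of 1000 bp, a q of 0.01, a peak in 1 list and lists of equal length. The members and gene lists were chosen with earlier results of these data known. Named genes were the 10 members, Prmt1, and from each list of centromere, kinetochore and proliferation genes the called genes or, with none, the gene with the smallest p. Marker lists of cell types were given as sums with their most abundant gene, and Ddx4, Sycp3, Lyz2 and Adgre1 were named after their values were seen. Of 55401 identifiers 55141 matched GENCODE vM21, and all 10 promoter windows of RefSeq were equal to the genome sequence of that build.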

Additional observations from a re-analysis of the deposited data

Results flagged for a closer look

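The genotype effect on Cenpe differed between the assays in the joint fit, which gave each gene a single spread for both assays. It was more positive in sorted spermatogonia than in whole testes by 0.68 on the log2 scale in the joint fit of 10 libraries, the separate fits giving 0.01 and -0.59, with an adjusted p of 0.0314 for the interaction in edgeR and a range of 0.0228 to 0.149 over the 10 fits that each left out 1 library. All 3 dKO testes were lower than all 3 WT testes, whereas 1 of 2 sorted dKO libraries was under both WT libraries.

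The genotype effect on Cenpn also differed between the assays, by 1.49 on the log2 scale in the joint fit, the separate fits giving 0.91 in sorted spermatogonia and -0.50 in whole testes. The adjusted p was 0.0350 in edgeR, with a range of 0.00699 to 0.119 over the fits that each left out 1 library. In CPM all 3 dKO testes were lower than WT and both sorted dKO libraries were higher than WT. In TPM the sorted libraries overlapped, at 32.7 and 13.7 in WT and 30.2 and 18.8 in dKO. The transcript length assigned to Cenpn was 940 bases in sorted WT replicate 1 and 1768 in sorted WT replicate 2. The assays differ in protocol and in cell content, which cannot be told apart. Because of the single spread per gene, the adjusted p of both interactions may be too small.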

How the results depend on the processing

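In whole testes, 35 of 40 fold changes of members kept their side of the threshold under other settings and 52 of 60 with 1 library left out, and none changed sign. With no minimum fold, 3 members and 12 genes of the other lists passed, against 0 and 1 called, and with 1 library left out the calls ranged from 0 to 1 and from 0 to 2, and the counts with no minimum fold from 1 to 5 and from 3 to 21. In sorted spermatogonia edgeR called 0 genes and DESeq2 called 1902, of which 2 were list genes, and with 1 library left out the calls ranged from 0 to 2 members and from 0 to 7 list genes, all on leaving out a WT library, where the lone WT library was assumed to vary like the dKO pair and 41.4% (without WT replicate 1) or 33.7% (without WT replicate 2) of all genes were called. Signs turned there for Cenpe (-0.04 with DESeq2, -0.04 with RLE size factors, -0.14 to 0.14 with 1 library left out). Leaving out 1 library also turned the signs of Cenpc1 (-0.04 to 0.91), of Cenpb (-0.18 to 10.41, the latter against a lone WT library at 0 counts and so no measure of size) and of the Cenpm difference between assays (-0.60 to 0.26, at 0.16 without sorted dKO replicate 2), and the cause was not tested. The differences for Cenpe and Cenpn missed the FDR with no filter (0.65 and 1.45), as did that for Cenpe with RLE size factors (0.56).

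Replicate numbers did not pair the samples (correlations of deviations 0.08, -0.22 and -0.12 in whole testes and 0.02 in sorted cells). With the replicate number as a block, 0 members were called in either assay. In whole testes 691 genes were then called higher and 259 lower, against 881 and 294 without the block. With no minimum fold, 7 list genes were lower at an FDR below 0.05 there, against 4.62% of all genes. Cenpe and Cenpf still passed the FDR in whole testes and Cenpn did not. The differences between assays of Cenpe (0.68) and Cenpn (1.43) did not pass.

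Members with a promoter peak depended on the peak rules, as did all genes, whose share stands in brackets. Within 1000 bp, H4R3me2a at P7 marked 1 (12.9%), H4R3me2s at P7 2 in WT (18.7%) and 1 in dKO (8.34%), H3R8me2a at P14 3 (37.8%) and H4R3me2s at P14 4 (39.8%). At a q of 0.01 or less, the P7 counts were 0 for H4R3me2a (1.08%), H3R2me2a (0.574%), H4R3me1 (0.942%) and H4R3me2s in WT (2.11%) and dKO (0.296%), 1 for H3R8me2a (1.32%) and 2 for H3K27ac (14.6%), and the P14 counts were 3 for H4R3me2a (26.1%) and H4R3me1 (13.5%) and 1 for H3R8me2a (15.9%) and H4R3me2s (9.04%). A peak in any 1 list gave, at P7, 6 for H4R3me2a (49.6%), 4 for H3R2me2a (46.1%), 5 for H3R8me2a (41.7%) and H4R3me1 (45.9%), 7 for H4R3me2s in WT (61.6%) and 8 in dKO (48.4%). Lists of equal length gave 1 for H4R3me2s at P7 in dKO (6.47%) and 3 in WT (17.5%), 5 for H4R3me2a at P14 (40.7%) and 3 for H3R8me2a at P14 (28.1%). Leaving out 1 list leaves marks with 2 lists a single list and no replicate rule. Counts at P7 then ranged from 1 to 2 for H4R3me2a (10.1% to 10.6%) and 2 to 4 for H3R2me2a (29.8% to 30.4%). For H3R8me2a at P7 they ranged from 3 to 4 (27.1% to 27.6%). For H4R3me2s at P7 they ranged from 5 to 6 in WT (41.9% to 43.8%) and from 3 (28.0%) to 7 (33%) in dKO. Counts were 3 for H4R3me1 at P7 (27.9% to 32.0%) and 3 for H4R3me2s at P14 (27.1% to 32.6%).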
